A study of Homo sapiens with 8 samples.

Results

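The 5 genes described here are named for organs other than blood or for a tumor, and were measured in K562, an established line of human chronic myeloid leukemia cells with erythroid features. They are TNNI3 of heart muscle, CRYBA4 of the eye lens, CFAP161 and C9orf135 of cilia, and MYEOV, a gene named for its high expression in myeloma. They are 5 of the 1950 genes in the deposited table and were picked by name, with their response to the plant extract already known. RNA had been sequenced in 8 libraries. In 4 of them the cells had been kept for 3 days with 80 µg/mL of an extract of Caulis Polygoni Multiflori, the stem of a medicinal plant (CPM in the labels). The other 4 came from cells without it, with no time in culture given, so the time and the extract cannot be told apart. Both groups are the same line in RPMI 1640 medium with 10% serum, penicillin and streptomycin. Libraries carry the numbers of their labels, extract 1 to 4 and control 2 to 5. The labels do not say whether these came from separate cultures, so any p-value measures the spread between libraries, which may be technical.

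Troponin I is the subunit of the thin filament that blocks myosin from actin until calcium binds the troponin complex, and TNNI3 codes for the form of heart muscle. Beta crystallins such as that of CRYBA4 are long-lived structural proteins of the lens fiber cells. CFAP161 and C9orf135, now also named CFAP95, code for proteins found inside the doublet microtubules of motile cilia, and C9orf135 has also been described in embryonic stem cells. MYEOV lies close to the cyclin D1 gene CCND1 in a chromosome band that is often amplified or rearranged in tumors, and the function of its product is little known. Leukemia lines transcribe many genes outside the tissue they are named for, and an RNA level says nothing on whether a protein is made.

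The members lie on 5 different chromosomes (GENCODE release 29, GRCh38). TNNI3 (ENSG00000129991) is on chromosome 19, 55151767 to 55157773, minus strand. CRYBA4 (ENSG00000196431) is on chromosome 22, 26621964 to 26630672, plus strand. CFAP161 (ENSG00000156206) is on chromosome 15, 81007033 to 81149175, plus strand. C9orf135 (ENSG00000204711) is on chromosome 9, 69820793 to 69906232, plus strand. MYEOV (ENSG00000172927) is on chromosome 11, 69294138 to 69367726, plus strand. All 5 are annotated as protein coding. Their longest coding sequences hold 210 codons in 8 exons for TNNI3, 196 in 6 exons for CRYBA4, 301 in 7 for CFAP161, 229 in 6 for C9orf135 and 313 in 3 for MYEOV. The annotation gives TNNI3 9 transcripts with 8 starts and MYEOV 12 transcripts with 11 starts, against 2 transcripts for CRYBA4. The deposited values are 1 per gene, so which transcript was present is not known.

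Promoters are shown for 4 of the 5 members, because they let the reader see which short words of tissue factors stand near each start. The windows run from 250 bases before to 50 after the RefSeq start of transcription (GRCh38.p14), 5′ to 3′ on the gene's own strand. They are chr19:55157683-55157982 (minus strand) for TNNI3, chr9:69820567-69820866 (plus) for C9orf135, chr22:26621713-26622012 (plus) for CRYBA4 and chr15:81134020-81134319 (plus) for CFAP161. For CFAP161 this RefSeq start lies 127 kb inside the gene as GENCODE draws it, where the longest span begins at 81007033. It is 23 bases after the start of the GENCODE transcript with the longest coding sequence (81134247), so the window does not show the outermost start. In the other 3 genes the RefSeq start lies within 41 bases of the GENCODE gene start. Capitals mark every match, on either strand, to one of the words searched.
TNNI3: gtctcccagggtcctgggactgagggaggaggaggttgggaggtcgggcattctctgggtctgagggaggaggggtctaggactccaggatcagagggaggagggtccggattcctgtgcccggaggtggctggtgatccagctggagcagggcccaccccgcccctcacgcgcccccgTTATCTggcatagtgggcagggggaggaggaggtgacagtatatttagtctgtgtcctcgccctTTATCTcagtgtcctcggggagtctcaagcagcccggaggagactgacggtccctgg
C9orf135: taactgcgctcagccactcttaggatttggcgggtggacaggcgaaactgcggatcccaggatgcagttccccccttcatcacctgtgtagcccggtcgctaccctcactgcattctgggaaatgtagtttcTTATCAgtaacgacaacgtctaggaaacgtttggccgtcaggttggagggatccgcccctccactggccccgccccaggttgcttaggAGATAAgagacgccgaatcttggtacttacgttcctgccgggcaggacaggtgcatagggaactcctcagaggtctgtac
CRYBA4: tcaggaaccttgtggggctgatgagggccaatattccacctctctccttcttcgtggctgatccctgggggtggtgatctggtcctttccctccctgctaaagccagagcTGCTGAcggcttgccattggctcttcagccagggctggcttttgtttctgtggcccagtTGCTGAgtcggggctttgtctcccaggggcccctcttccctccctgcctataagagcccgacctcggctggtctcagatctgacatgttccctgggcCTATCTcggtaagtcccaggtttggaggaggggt
CFAP161: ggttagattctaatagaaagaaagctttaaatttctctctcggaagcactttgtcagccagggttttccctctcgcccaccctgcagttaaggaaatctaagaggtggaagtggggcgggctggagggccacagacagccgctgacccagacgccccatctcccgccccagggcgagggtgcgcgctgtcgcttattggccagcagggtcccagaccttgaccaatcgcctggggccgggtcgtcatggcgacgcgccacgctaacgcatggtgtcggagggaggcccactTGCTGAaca

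For GATA factors 4 words were searched. The first was AGATAA. With it the word AGATAG was counted. A further word was TGATAA. The last of this kind was TGATAG. For MAF factors the word was TGCTGA. For E-box factors it was CACGTG. For RFX factors it was GTTGCC. The MEF2 motif was also searched. For the TATA box the word was TATAAA. No word lies within another, and overlapping matches were allowed. GATA1 is a main factor of erythroid cells, the related GATA4 of the heart, MAF factors act in the lens and RFX factors on genes of cilia. TNNI3 and C9orf135 each held 2 GATA words and CRYBA4 held 1. In TNNI3 these were AGATAA on the opposite strand, beginning 71 and 7 bases before the start. In C9orf135 they were TGATAA on the opposite strand and AGATAA on the gene's strand, beginning 118 and 30 bases before the start. At least 1 GATA word occurred in 25.5% of the promoters of 27305 genes (the first listed start of each) and 2 or more in 6.26%. CRYBA4 held TGCTGA at 140 and 81 bases before the start, and CFAP161 held it 41 bases after it. This word was in 17.4% of all promoters. The other words were not found in these 4 windows. Over all promoters CACGTG occurred in 7.43%, GTTGCC in 12.2% and the MEF2 motif in 2.83%. The share for TATAAA was 12.0%. The ratio of observed to expected CG pairs was 0.376 in TNNI3 and 0.23 in CRYBA4, against 0.704 in CFAP161, 0.672 in C9orf135 and a median of 0.58 over all promoters. The promoters of both ciliary genes were thus richer in CG pairs than those of the heart and lens genes. A match is a description of the letters, not evidence of a bound factor.

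**Figure D1:**
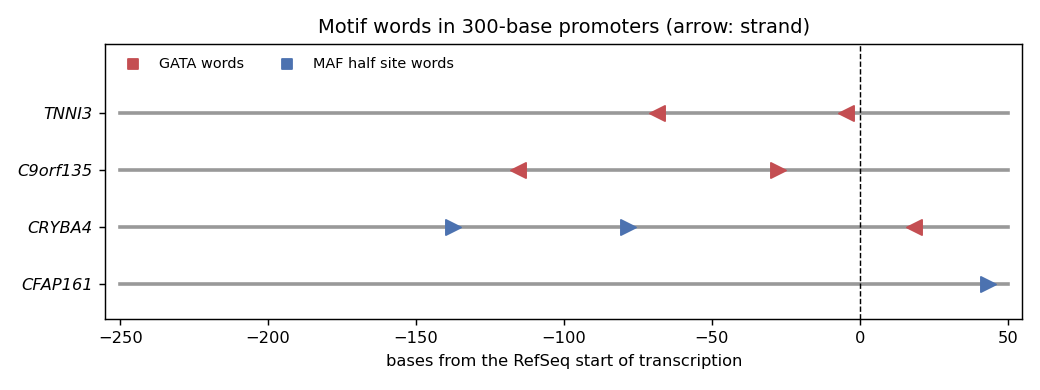
Matches to the GATA words (red) and the MAF word (blue) in the 300-base promoters of 4 genes, by distance in bases from the RefSeq start of transcription (dashed line). Arrows point along the strand of the match, and TNNI3 and C9orf135 show 2 GATA words each, all before the start.

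All 5 genes had lower values in every extract library than in any control library, with group means 1.99 to 3.47 times apart. The unit of the deposited values is not given in the sources used here, and nothing shows that they are per length, so levels of different genes are not ranked against each other. The table lists only genes at 1.5-fold or more with a raw p-value under 0.05 in the authors' own test. Some of these had an adjusted p above 0.05 in that test, such as TCAP (0.31) and CT83 (0.176), described below. The members were named from this table. Their differences are therefore described without a test. Of the 750 genes of the table high enough to test (1 or more in at least 4 of the libraries), 45.9% had all extract libraries below all control libraries, and the 5 of 5 here was fixed by the choice of members. In bulk RNA, fewer cells with a transcript and less of it per cell cannot be told apart.

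TNNI3 had values of 60.54, 50.29, 61.21 and 52.38 in control 2 to 5. In extract 1 to 4 they were 28.45, 24.34, 25.92 and 23.66. Control 2 and 4 were higher than control 3 and 5, and the lowest of the 4 was still 1.77 times the highest extract library. The means were 56.1 ± 5.58 and 25.6 ± 2.13 (SD, n = 4 each), 2.19-fold apart. The log2 difference, on log2(value + 1) as for every difference given here unless another source is named, was −1.10 with a standard error of 0.0844.

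CRYBA4 showed the widest difference of the 5 and the least even extract libraries. It had 10.88, 14.74, 12.82 and 11.13 in control 2 to 5, and 5.24, 3.52, 3.40 and 2.12 in extract 1 to 4. Extract 1 was high and extract 4 low within their group, and all 4 lay well under the controls. The means were 12.4 ± 1.79 and 3.57 ± 1.28 (SD, n = 4 each), 3.47-fold apart, with a log2 difference of −1.58 and a standard error of 0.201. The coefficient of variation was 35.9% in the extract group and 14.4% in the control group.

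CFAP161, a ciliary gene, had 11.55, 11.52, 11.01 and 14.88 in control 2 to 5. The first 3 of these lay close together and control 5 stood above them. The extract values were 6.15, 4.85, 6.08 and 3.67, with libraries 1 and 3 higher than 2 and 4. The means were 12.2 ± 1.78 and 5.19 ± 1.17 (SD, n = 4 each), 2.36-fold apart. The log2 difference was −1.11 with a standard error of 0.156, and −1.02 without control 5.

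C9orf135, the other ciliary gene, had 17.92, 16.31, 19.25 and 16.95 in control 2 to 5 and 5.65, 6.54, 7.37 and 6.89 in extract 1 to 4. Here extract 1 was the lowest of its group, whereas in TNNI3, CRYBA4 and CFAP161 it was the highest. The groups lay far apart, with the lowest control library at 2.21 times the highest extract library. The means were 17.6 ± 1.28 and 6.61 ± 0.726 (SD, n = 4 each), 2.66-fold apart, and the log2 difference was −1.29 with a standard error of 0.0872.

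MYEOV was the most even of the 5. Its control values were 52.01, 51.28, 52.81 and 48.99, and its extract values 25.80, 25.95, 25.22 and 25.89. The extract libraries differed by less than 1 expression unit among themselves, a coefficient of variation of 1.31%, against a median of 18.3% over the 750 tested genes. A low spread was not particular to MYEOV. In the genes most like it, named below, the extract figure was 1.03% for TMSB4X, 4.87% for SLC2A3 and 3.26% for SELENOW. The means of MYEOV were 51.3 ± 1.64 and 25.7 ± 0.336 (SD, n = 4 each), 1.99-fold apart. The log2 difference was −0.97 with a standard error of 0.0391.

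**Figure D2:**
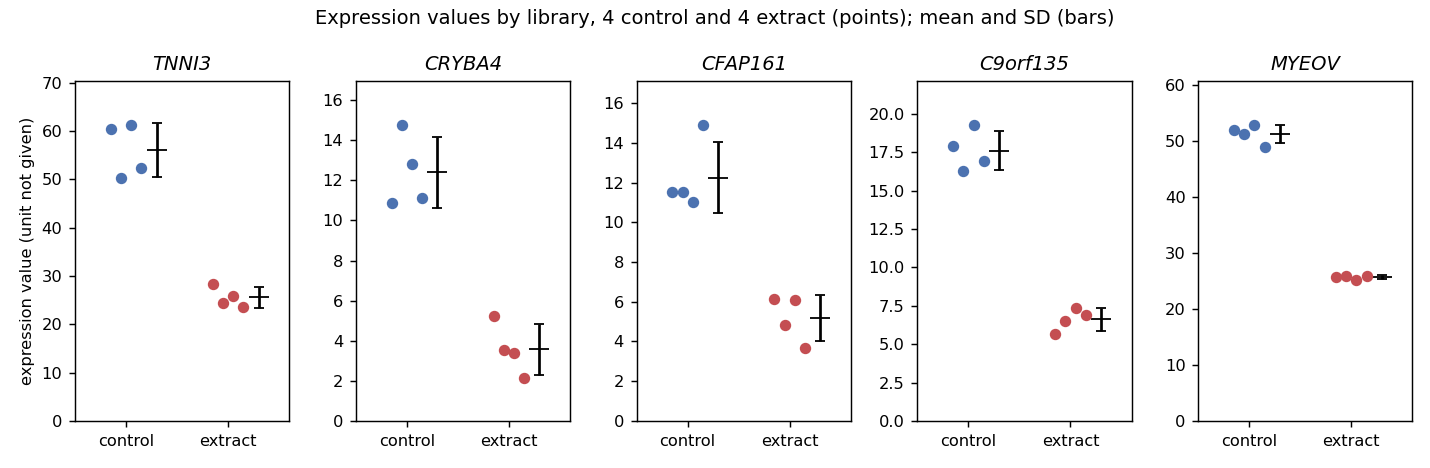
Deposited expression values (unit not given) of the 5 genes in 4 control (blue) and 4 extract (red) libraries, with the mean and SD of each group at the right. In each panel all red points lie under all blue points, from a tight group at 25.22 to 25.95 for MYEOV to a spread from 2.12 to 5.24 for CRYBA4.

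The values that led to the choice of these genes can be set beside the differences above. As log2 fold changes, the authors' deposited table had −1.23 for TNNI3, −1.65 for CRYBA4, −1.15 for CFAP161, −1.36 for C9orf135 and −1.06 for MYEOV. Its adjusted p-values ran from 1.98e-159 for MYEOV to 6.43e-08 for CRYBA4, by a test whose name is not given in the sources used here. Among the 750 tested genes, ordered from the lowest difference, CRYBA4 was number 13, C9orf135 23, CFAP161 37, TNNI3 38 and MYEOV 57. Adding 1 to each value shrinks the difference of genes with low values, so these ranks depend in part on level. PDK4, described below, was 2.73-fold lower with a difference of −1.08, whereas TNNI3 was 2.19-fold lower with −1.10. The median difference of the 5 was −1.11 and that of all tested genes −0.50. The 750 are themselves genes chosen as changed.

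**Figure D3:**
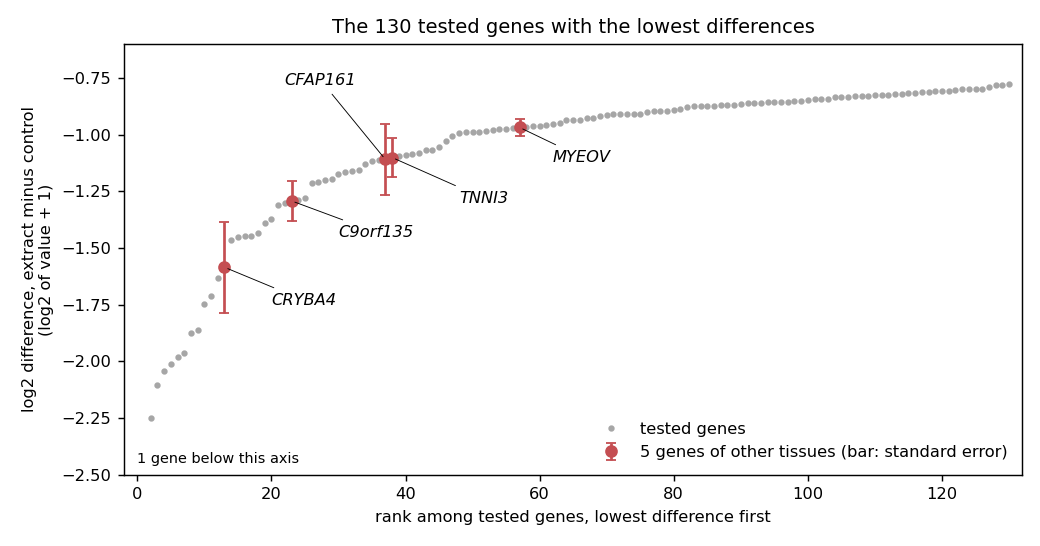
Log2 difference (extract minus control, on log2 of value + 1) of the 130 tested genes with the lowest differences, by rank, with the 5 genes in red and their standard errors as bars. Of the 5, CRYBA4 at −1.58 lies lowest and MYEOV at −0.97 has the shortest bar, and 1 tested gene lies below the axis.

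Within a group the 5 genes did not move together from library to library. After the group mean of each gene was taken off, extract 1 was above the mean for 4 of the 5 and extract 4 below it for 3, with C9orf135 the exception in extract 1. In extract 4 the deviation on the log2 scale was −0.51 for CRYBA4 and −0.38 for CFAP161, but 0.06 for C9orf135 and 0.01 for MYEOV. Over the 8 libraries, Pearson's r of these deviations ran from −0.66 for CFAP161 with MYEOV to 0.55 for CRYBA4 with CFAP161. The 2 ciliary genes had r = −0.33. These are descriptions over 8 libraries, and the genes of a library share its depth and scaling.

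The 3 tested genes most like each member were then found. Likeness was the root mean square difference of log2(value + 1), each gene taken relative to its control mean, over the 8 libraries and among 534 other named genes. MYEOV had the closest partners, with 0.0562 for TMSB4X, which codes for the actin-sequestering peptide thymosin beta 4, 0.0654 for the glucose transporter gene SLC2A3 and 0.0723 for the selenoprotein gene SELENOW. TMSB4X went from 1122 ± 33.2 to 593 ± 6.12 (SD, n = 4 each). TNNI3 was nearest to the imprinted gene PHLDA2 (0.0946), followed by PDK4 (0.116), a kinase gene that restrains pyruvate oxidation, and SLC2A3 (0.12). PHLDA2 went from 20.7 ± 1.07 to 9.22 ± 0.515.

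C9orf135 was nearest to ACSM3, a mitochondrial acyl-CoA synthetase gene (0.121), then to the ubiquitin ligase adaptor gene FBXO2 (0.171) and PHLDA2 (0.174). FBXO2 went from 2.38 ± 0.124 to 0.525 ± 0.204 (SD, n = 4 each), with every extract library under 1. Its fall was 4.53-fold against 2.66-fold for C9orf135, so its likeness depends on the pseudocount of 1. CFAP161 was nearest to PDK4 (0.159), CCDC116 (0.164) and SLC2A3 (0.212). CCDC116 was 10.4 ± 1.07 in control and 4.78 ± 0.849 in extract libraries (SD, n = 4 each), and like CFAP161 it was lowest in extract 4. CRYBA4 had the most distant partners, EVA1B (0.229), GMFG (0.285), the gene of a protein that acts on branched actin, and ACSM3 (0.326). EVA1B had 3.27, 1.94, 2.06 and 1.27 in extract 1 to 4, high in library 1 and low in library 4 as CRYBA4 was. No gene of heart, lens or cilia was among the partners. Beside the members, only 2 listed genes of heart and striated muscle, 2 of cilia and 0 of lens were tested. Their absence was thus nearly fixed in advance. With a pseudocount of 0.1 in place of 1, 9 of the 15 partners were the same. Those lost were FBXO2 and PHLDA2 for C9orf135, PDK4 for TNNI3, SLC2A3 for CFAP161, ACSM3 for CRYBA4 and SELENOW for MYEOV. Among the members themselves the closest were TNNI3 and MYEOV, at 0.138, and the farthest CRYBA4 and MYEOV, at 0.515.

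**Figure D4:**
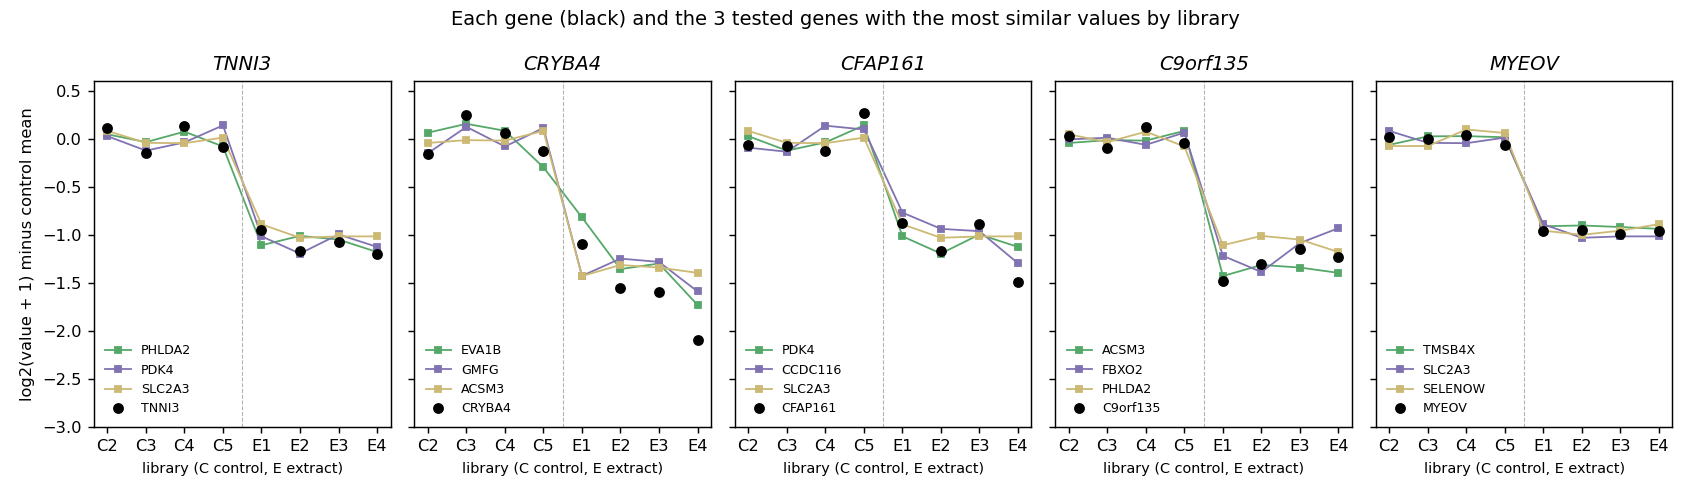
Log2(value + 1) relative to the control mean in each library (C control, E extract) for the 5 genes (black points) and the 3 tested genes closest to each (colored lines). The lines for MYEOV run nearly flat around −0.97 in the extract libraries, and the points of CRYBA4 lie farthest from their lines, with extract 4 lowest.

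The other genes of the same tissues were few in the table. Of 30 further genes of heart and striated muscle 2 were listed. The actinin gene ACTN2, part of the Z-disc that anchors actin filaments, had 2.35, 1.92, 2.35 and 2.14 in control 2 to 5 and 1.06, 1.26, 0.91 and 1.29 in extract 1 to 4. It fell from 2.19 ± 0.205 to 1.13 ± 0.179, a log2 difference of −0.58 (limma adjusted p = 0.00117, n = 4 each). TCAP, which caps titin at the Z-disc, had means of 0.807 and 1.36 and did not pass (limma adjusted p = 0.0529). It passed as higher with each library set to the same median (limma adjusted p = 0.00603) and without extract 4 (limma adjusted p = 0.0274). Without control 2, 3 or 4 it did not pass (limma adjusted p = 0.122, 0.0971 and 0.101). Without control 5 or extract 1, 2 or 3 it was too low to test. The skeletal troponin I genes TNNI1 and TNNI2, with TNNT2 and TNNC1, also of the troponin complex, were not analysed here. Of the 750 tested genes 82.8% were called in either direction by limma, 56.0% lower and 26.8% higher.

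Of 74 further genes of the ciliary axoneme 4 were listed, of which the authors' deposited table had 3 higher and 1 lower. EFHC2, which codes for a protein inside ciliary doublet microtubules, fell from 2.92 ± 0.39 to 1.86 ± 0.186, a log2 difference of −0.45 (limma adjusted p = 0.00508, n = 4 each). The same median centring took this call away (limma adjusted p = 0.133). CFAP410 had means of 4.85 and 5.96 and did not pass (limma adjusted p = 0.0884), whereas it passed as higher after the same centring (limma adjusted p = 0.00973). The authors' own test differed here and had it higher (log2 fold change 0.71, authors' adjusted p = 4.04e-10). CFAP44 and CFAP70 were too low to test, with log2 fold changes of 1.05 and 1.18 in the authors' deposited table. The master factor of motile cilia FOXJ1 and the dynein gene DNAH5 were not analysed here.

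None of 22 lens genes, the other crystallins included, and none of 22 genes of pluripotent stem cells were in the table (0 each). Of 28 genes normally confined to the testis but often made by tumors 2 were listed, both lower. PAGE1 fell from 5.21 ± 0.952 to 2.79 ± 1.09, a log2 difference of −0.75 (limma adjusted p = 0.014, n = 4 each), a call lost after median centring (limma adjusted p = 0.0736). CT83 was too low to test, listed at 0 in 3 of the 4 extract libraries. Of a list of 16 genes known in K562, only the embryonic globin gene HBZ was in the table. The table holds only changed genes, so the absence of the others says nothing on the identity of the cells. HBZ was present in all 8 libraries (2834 to 5306) and, unlike the 5 genes, was higher with the extract. It rose from 2876 ± 47.2 to 5097 ± 149, a log2 difference of 0.83 (limma adjusted p = 3.99e-08, n = 4 each), with every extract library above every control. With quantile normalization its difference was 0, since that method gives the highest gene of each library the same value. The part of this change in the differences of the 5 genes was not tested.

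Genes next to the members on the chromosome were in the table for 4 of the 5, and each of these 4 had a tested neighbor within 500 kb that fell. Over the other 722 tested genes with a position, 34.8% had a gene called lower within that distance, and no gene was in the table around CRYBA4 (0 of 32 annotated). Since these genes were all chosen on the same libraries, this count is a description and says nothing particular to the members.

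The tested neighbor nearest to TNNI3 without overlapping it was DNAAF3-AS1, an antisense RNA of the next gene DNAAF3, which helps to assemble the dyneins of cilia. It lies on the opposite strand, and the gap to TNNI3 is 1.17 kb (chromosome 19, 55158939 to 55177540). It had 2.72, 3.37, 3.03 and 3.37 in control 2 to 5 and 1.53, 0.84, 0.92 and 1.41 in extract 1 to 4. It fell from 3.12 ± 0.313 to 1.18 ± 0.346, a log2 difference of −0.93 (limma adjusted p = 0.000479, n = 4 each). Reads of an antisense gene and its partner can be told apart only where strand was kept, which the sources used here do not state. The locus AC010327.1 overlaps TNNI3 on the same strand and shares 496 exonic bases with it. These are 24.4% of the exonic bases of TNNI3 and 50.9% of those of AC010327.1. Reads of these loci may therefore have been split between them. AC010327.1 had means of 3.98 ± 1.29 and 2.48 ± 0.895 and overlapping groups (limma adjusted p = 0.0643), whereas the authors' own test had it lower (authors' adjusted p = 0.0434).

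Farther from TNNI3 the direction was mixed. TMEM86B, which codes for an enzyme that breaks down plasmalogen lysolipids, lies 68.9 kb away and rose from 1.53 ± 0.336 to 2.90 ± 0.745, a log2 difference of 0.61 (limma adjusted p = 0.0089, n = 4 each). ZNF579 had means of 6.40 and 4.64 with overlapping groups (limma adjusted p = 0.108), whereas the authors' own test had it lower (authors' adjusted p = 3.84e-07). Without control 5, which was low at 3.86, it passed as lower (limma adjusted p = 0.00616).

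IL16, the gene of a cytokine that attracts CD4+ cells, begins 10.4 kb after the end of CFAP161 on the same strand (chromosome 15, 81159575 to 81314058). It had 12.05, 12.01, 11.83 and 11.49 in control 2 to 5 and 5.92, 5.87, 6.45 and 6.13 in extract 1 to 4. The groups were narrow and lay far apart. IL16 fell from 11.8 ± 0.255 to 6.09 ± 0.264, a log2 difference of −0.86 with a standard error of 0.0582 (limma adjusted p = 1.1e-05, n = 4 each). The high value of CFAP161 in control 5 was not seen in IL16, where control 5 was the lowest control.

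MYEOV and CCND1, which drives entry into S phase, lie 273 kb apart on the same strand. CCND1 had 28.76, 27.53, 28.81 and 27.94 in control 2 to 5 and 18.05, 17.03, 16.13 and 17.53 in extract 1 to 4, a log2 difference of −0.69 (limma adjusted p = 1.12e-05, n = 4 each) beside −0.97 for MYEOV. In both genes each group was narrow. The other 15 genes of a list from this band, the growth factor genes FGF3, FGF4 and FGF19 among them, were not in the table. It holds only changed genes, so their levels are not known here. Near C9orf135, KLF9, the gene of a zinc finger factor, lies 478 kb away on the opposite strand and fell from 10.1 ± 0.588 to 5.47 ± 0.406, a log2 difference of −0.78 (limma adjusted p = 6.19e-05, n = 4 each).

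**Figure D5:**
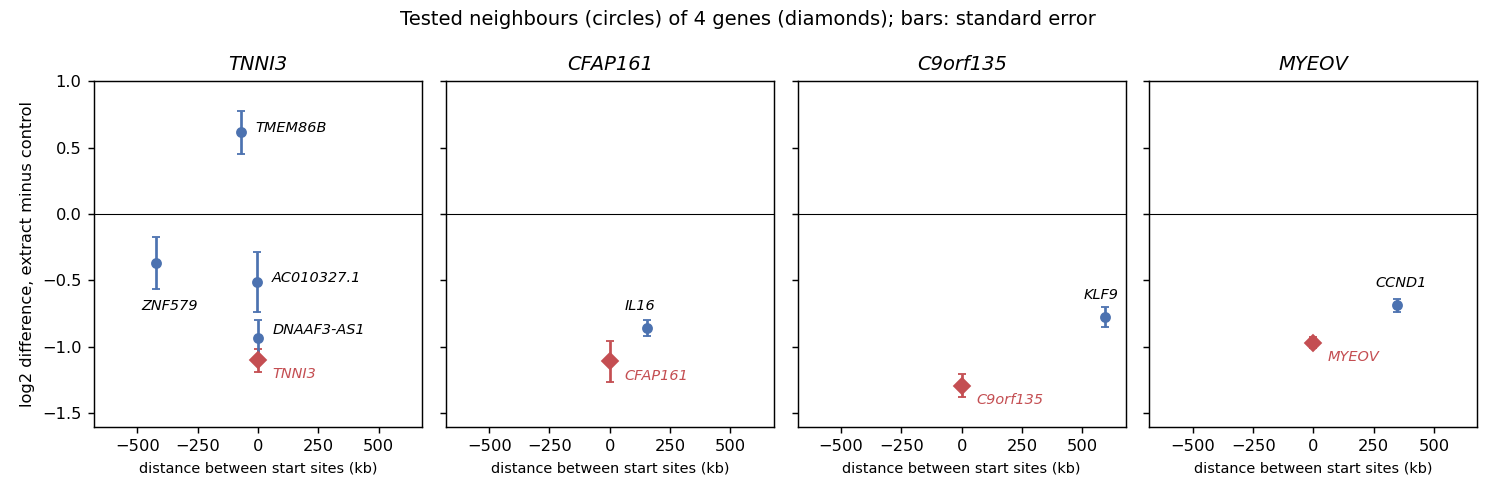
Log2 difference (extract minus control) of 4 genes (red diamonds) and of their tested neighbors within 500 kb (blue circles), by distance between GENCODE gene starts (for CFAP161 the outermost) in kb along the strand of the red gene, with standard errors as bars. DNAAF3-AS1, AC010327.1, ZNF579, IL16, CCND1 and KLF9 lie under 0, with KLF9 the farthest from its gene, and TMEM86B lies above 0.

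The differences above can also be set against the median of the tested genes. The listed genes were all chosen as changed, 850 of them higher and 1100 lower. An uneven list and a shift of whole libraries therefore cannot be told apart here. The median of the 750 tested genes was lower in extract than in control libraries by −0.27 (log2). Relative to it the differences were −0.83 for TNNI3, −1.32 for CRYBA4, −0.84 for CFAP161, −1.03 for C9orf135 and −0.70 for MYEOV. All 5 kept their direction. Summed over the listed genes, the libraries ranged from 13114 to 14134, and their depth is unknown.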

How the data were processed

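Per the submitters' processing notes, reads were handled with HISAT2, StringTie and GRCh38, with no version or role given. The RNA came from TRIzol extraction and a TruSeq library kit, per the labels' protocols. The authors deposited 1 normalized expression score per gene and library, with unknown unit and depth, and no count. Beside it they deposited a fold change ratio and the log2 of it. Their p-value, raw and adjusted, is in the same table, per the file headers.

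The differences come from limma 3.58.1 in R 4.3.3 on log2(value + 1), with trended and robust moderation, over the 750 genes at 1 or more in 4 or more libraries. Adjusted p is Benjamini-Hochberg over the 750, called at 0.05. These genes were chosen on the same libraries, so no call is independent evidence. The fit was tested on simulated data in which a minority of the genes rose and none fell, unlike this list of changed genes. The members and lists were chosen with earlier results of these data known. Named beside the 5 genes were up to 4 tested and 4 untested table genes of each of 7 lists, table genes within 500 kb, and the 3 tested genes most like each member. Of 1950 gene IDs 1866 were found in GENCODE 29. Promoters are from RefSeq (GRCh38.p14) and matched 4 of the 5 genes. Alternatives were another pseudocount, no filter, 2 scalings, each library left out and a replicate block.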

Additional observations from a re-analysis of the deposited data

Results flagged for a closer look

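In 5 of 70 groups of 4 libraries (35 named genes), the gap between 1 library and the nearest of the other 3, as a share of the group's range, was above Dixon's critical value at the 5% level. These shares were 0.833 to 1, and chance gives about 1 such group in 20, here 3.5. CFAP161 was highest in control 5, at 14.88 against 11.01 to 11.55. SLC2A3, one of the genes most like TNNI3, CFAP161 and MYEOV, was highest in extract 1, at 22.85 against 20.64 to 20.86. TMSB4X was lowest in control 2, at 1072.78 against 1133.12 to 1142.55. CFAP44 was lowest in extract 1, at 0.68 against 1.08 to 1.16. CT83 was listed at 0.22 in extract 3 and at 0 in the other 3 extract libraries.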

How the results depend on the processing

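The differences of the 5 genes kept their direction under every alternative run. With 1 library left out they moved by less than the spread within groups in all 40 fits. Quantile normalization changed them to −0.50 for TNNI3, −0.84 for CFAP161, −0.996 for C9orf135 and −0.34 for MYEOV. Median centring gave −0.83, −0.84, −1.03 and −0.70 in that order. CRYBA4 was at −1.33 and −1.32, a move smaller than its spread within groups. Both scalings rest on the listed genes alone, all chosen as changed. For MYEOV the authors' deposited table gave −1.06, farther from −0.97 than the spread within groups. Without a filter, with more genes in the fit, 314 were higher and 567 lower, against 201 and 420. Lower calls went from 420 to 241 with median centring and 251 with quantile normalization, so 228 higher stood against 241 lower after centring. Groups share the numbers 2, 3 and 4. With the replicate block the differences were −1.18, −1.79, −1.10, −1.25 and −0.99 for TNNI3, CRYBA4, CFAP161, C9orf135 and MYEOV, and 511 genes were called against 621. Same-numbered libraries had correlations of 0.0754, 0.0754 and 0.149 between their deviations from the group means, and 0.101, 0.103 and 0.143 when only the shared numbers entered the means. Extract 2, 3 and 4 each correlated best with the control of their own number, while control 2 did so with extract 1 (0.136). When only the shared numbers entered the means, libraries of unlike number had correlations from −0.106 to −0.0123. Whether the numbers pair the libraries is not known, and the main fit treats them as unpaired. Among the named neighbors and list genes, ZNF579 passed with the block (limma adjusted p = 0.0229), AC010327.1 without control 5 or extract 4 (limma adjusted p = 0.0357 and 0.0222), and CFAP410 without control 3 (limma adjusted p = 0.0307). TCAP passed with quantile normalization (limma adjusted p = 0.0258) and CFAP410 too (limma adjusted p = 0.0159), while EFHC2 and PAGE1 no longer did (limma adjusted p = 0.0888 and 0.0668). DNAAF3-AS1, IL16, CCND1, KLF9 and TMEM86B stayed past the threshold in all alternatives. The depth is unknown, so counting error could not be given.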
